A study of Mus musculus with 4 samples.

Results

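Transcripts of 45 cell cycle genes were examined in mouse bone marrow-derived macrophages, a primary macrophage culture grown from bone marrow. The members were chosen by name, with earlier results of these data known. They fall into 13 DNA replication genes, 24 mitotic genes and 8 regulators of the G1 phase. All 45 symbols were found among the 23284 gene symbols of the deposited expression files. Wild-type macrophages were seeded at 1000000 cells per well in 24-well plates and received lipopolysaccharide (LPS), a bacterial cell wall component, at 1 µg/ml during 1 h. Culture then continued for 24 h with phosphate-buffered saline (vehicle, 2 libraries) or with recombinant mouse galectin-1 (2 libraries), a lectin that binds galactosides on cell surfaces. Every library had received LPS, and an LPS-free culture was not analysed here. The strain, age and number of mice, and the galectin-1 dose, were not found in the labels.

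A cell enters the division cycle when D-type and E-type cyclins activate cyclin-dependent kinases and release E2F transcription factors, which switch on the genes of DNA synthesis. The mitotic genes are switched on later, in G2, through promoter elements bound by the DREAM and MuvB complexes. Bone marrow-derived macrophages divide in response to the growth factor CSF1, and LPS is known to halt that division and to induce the cyclin-dependent kinase inhibitor encoded by Cdkn1a. Whether galectin-1 altered the transcripts of this programme under LPS is what the comparison addresses, within the series' wider question of how the lectin changes the character of macrophages.

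The promoters of the replication and mitotic members held E2F and CHR letters in different shares, given here as a description with no test. A window from 250 bases before to 50 bases after 1 listed RefSeq start site (GRCm38.p6), which is not the outermost start of every gene, was held for 37 of the 45 members. The E2F letters TTTCCCGC, TTTGGCGC, TTTCGCGC or TTTGCCGC, on either strand, lay in 5 of 12 replication windows and 1 of 20 mitotic windows. Of all 27018 windows, 2.32% held them. The letters TTTGAA or TTCGAA of the cell cycle genes homology region (CHR), on either strand, lay in 16 of 20 mitotic windows and 3 of 12 replication windows, and in 19.4% of all windows. CCAAT, the letters bound by the factor NF-Y, lay in 10 of 12 replication windows and 18 of 20 mitotic windows, against 37.9% of all windows. None of the 5 G1 windows held the E2F or CHR letters. Such matches describe letters and are not measured binding sites.

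Up to 200 bases (179 for Mki67) lying before both that site and the outer bound of the RefSeq gene are shown for 2 members of each class, picked because they hold matches, with the E2F and CHR letters in capitals, read 5′ to 3′ along the gene. The replication genes Mcm5 (chr8:75109268-75109467 on the plus strand) and Mcm6 (chr1:128359706-128359905 on the minus strand) encode helicase subunits and carry E2F letters, of which adjacent matches overlap in a single capital run. The mitotic genes Mki67 (chr7:135716451-135716629 on the minus strand), encoding the proliferation marker Ki-67, and Top2a (chr11:99024200-99024399 on the minus strand), encoding the topoisomerase that untangles chromosomes, carry CHR letters.
Mcm5: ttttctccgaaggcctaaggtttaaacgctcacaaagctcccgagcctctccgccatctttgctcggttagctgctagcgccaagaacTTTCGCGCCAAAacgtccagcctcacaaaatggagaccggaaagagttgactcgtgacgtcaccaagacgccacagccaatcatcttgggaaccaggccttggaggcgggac
Mcm6: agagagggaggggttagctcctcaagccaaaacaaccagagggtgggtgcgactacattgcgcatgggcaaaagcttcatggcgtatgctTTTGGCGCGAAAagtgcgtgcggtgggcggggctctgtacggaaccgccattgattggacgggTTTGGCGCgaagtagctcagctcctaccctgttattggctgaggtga
Mki67: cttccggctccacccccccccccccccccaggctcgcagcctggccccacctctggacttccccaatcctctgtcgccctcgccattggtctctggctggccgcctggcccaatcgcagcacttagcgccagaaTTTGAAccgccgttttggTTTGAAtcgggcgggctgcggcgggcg
Top2a: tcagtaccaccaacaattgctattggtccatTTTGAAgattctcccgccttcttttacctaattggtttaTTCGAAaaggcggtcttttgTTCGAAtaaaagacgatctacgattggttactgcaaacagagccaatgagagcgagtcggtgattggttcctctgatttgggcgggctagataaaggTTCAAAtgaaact
Mcm5 had 2 E2F matches and Mcm6 had 3, both without CHR letters in this stretch, while Mki67 had 2 CHR matches and Top2a had 4, both without E2F letters.

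The libraries were close to each other in scale. Their totals ran from 541138 to 557661 FPKM (fragment numbers scaled to transcript length and library size), with 13636 to 13785 symbols above 0. The steps of low FPKM values placed vehicle replicate 2 at 0.956, galectin-1 replicate 1 at 1.02 and galectin-1 replicate 2 at 0.878 of the depth of vehicle replicate 1; the absolute depth is unknown. Pearson correlations of log2 values across genes ran from 0.979 to 0.988 between libraries. Vehicle replicate 2 correlated more with galectin-1 replicate 1 (0.9859) and replicate 2 (0.9834) than with vehicle replicate 1 (0.9825). Macrophage markers were abundant in every library, with summed levels of 9342 to 9346 FPKM with vehicle and 10120 to 10140 FPKM with galectin-1. Erythroid and lymphocyte markers each summed to at most 0.342 FPKM, with Hba-a1 and Cd3e at 0 throughout. Neutrophil markers summed to 3.22 to 5.19 FPKM, and markers of myeloid progenitors to 4.61 to 6.49 FPKM, nearly all from Ly6c2 and Kit, with Elane and Ms4a3 at 0 throughout.

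Most cell cycle genes had means below 5 FPKM, and a few stood far above that. The mean over the 4 libraries was over 100 FPKM for 2 members, 5 to 100 FPKM for 7, 1 to 5 FPKM for 21 and below 1 FPKM for 15. Of all 23284 symbols, 9380 had a mean of at least 1 FPKM, so members lay below 1 FPKM less often than symbols at large. The median of the members' mean levels was 2.31 FPKM for the replication genes and 1.03 FPKM for the mitotic genes. Below 1 FPKM lay 3 of 13 replication members and 11 of 24 mitotic members. FPKM is scaled to transcript length, so these levels can be set side by side. In bulk RNA, fewer cycling cells and less transcript per cell cannot be told apart.

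**Figure D1:**
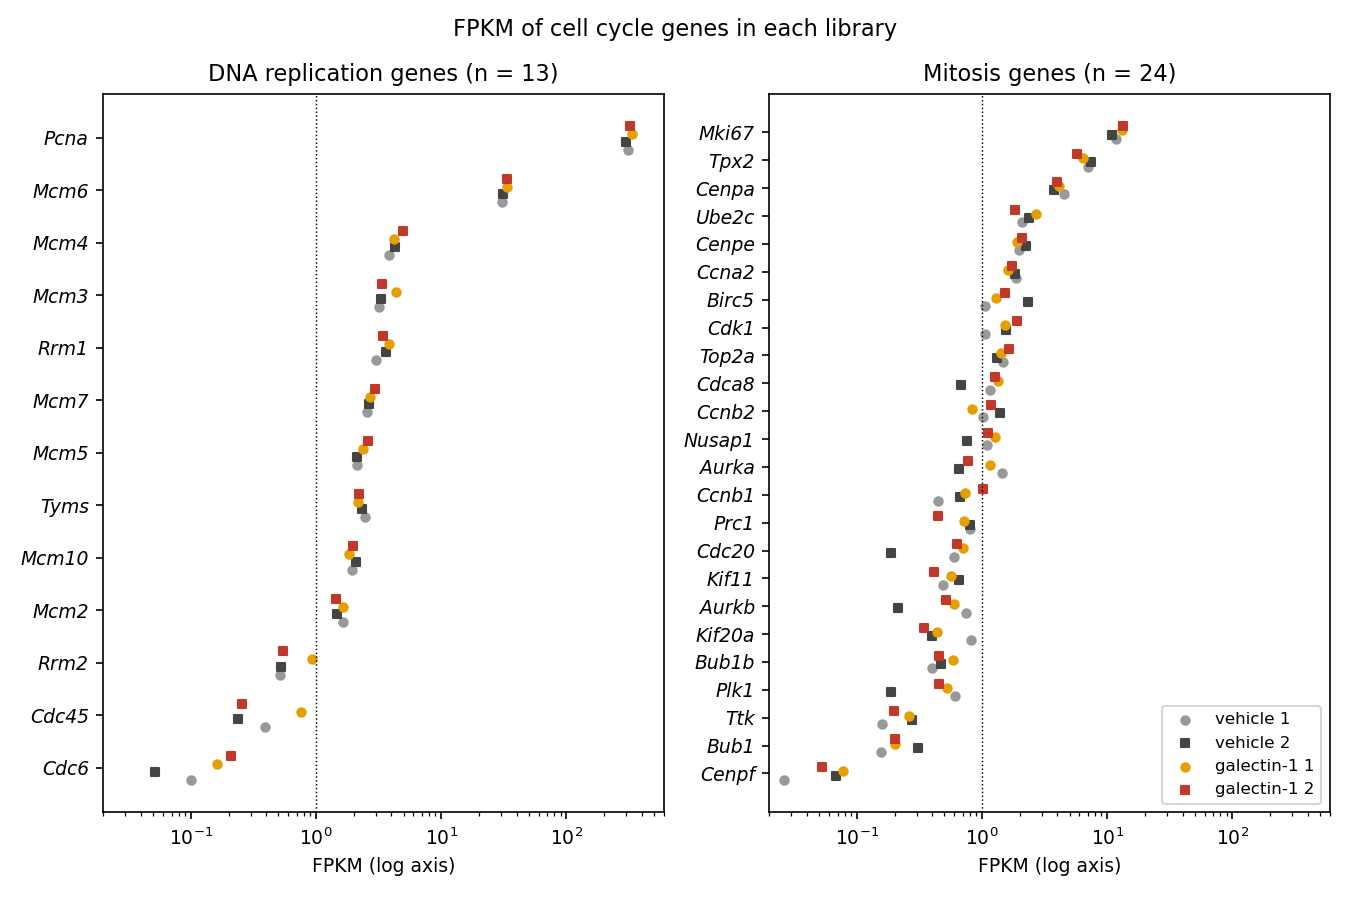
FPKM (log axis) of the 13 DNA replication genes and the 24 mitotic genes in each of the 4 libraries, 1 point per library, with the 1 FPKM minimum as a dotted line. Pcna and Mcm6 lie far above the other replication genes, and 11 mitotic genes have means below 1 FPKM.

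With galectin-1, 1 of the 30 testable members changed: Ccnd2, encoding cyclin D2, fell, and none rose. No DNA replication gene and no mitotic gene passed the test. Testable means at least 1 FPKM on average in the 4 libraries, and a gene passed at a Benjamini-Hochberg adjusted p under 0.05 in limma, fitted to log2(FPKM + 1) over all 9380 testable genes. Of those 9380, 112 passed (1.19%), 57 higher (0.608%) and 55 lower (0.586%). Leaving out 1 library left 12 to 16 calls. The higher genes made up 50.9% of the 112 calls, 46.7% after median-ratio scaling and 33.8% after quantile normalization (24 higher and 47 lower). They made up 25% of the calls without vehicle replicate 1, 38.5% without vehicle replicate 2, 61.5% without galectin-1 replicate 1 and 75% without galectin-1 replicate 2. At an unadjusted p under 0.05 in limma, 4 members were higher and 4 lower out of 30, against 23.2% of all tested genes in either direction (12.2% higher and 11% lower). The groups did not overlap for 15 of the 30, 9 higher and 6 lower, against 55.4% of all tested genes (29.1% higher and 26.2% lower). The labels do not tell whether replicates are separate cultures or animals; the p-values therefore reflect the spread of these samples alone, and that spread may be technical. Fold changes below are differences of log2(FPKM + 1), galectin-1 minus vehicle, a scale that understates changes of low genes.

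**Figure D2:**
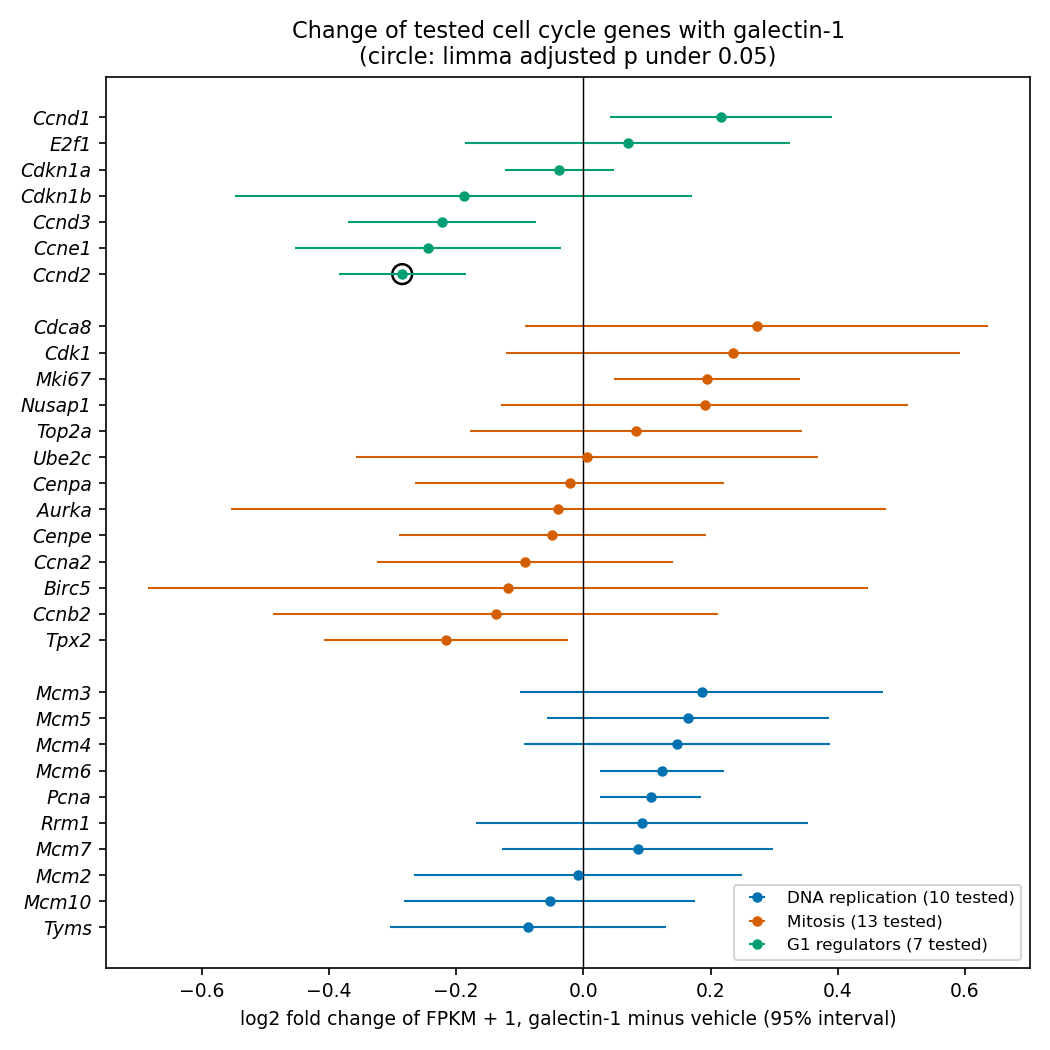
Log2 fold change of FPKM + 1 (galectin-1 minus vehicle) with its moderated 95% interval for the 30 tested members, coloured by role. Ccnd2, circled, is the member past the threshold, and the intervals of Mki67, Pcna, Mcm6, Ccnd1, Ccnd3, Ccne1 and Tpx2 also exclude 0 before adjustment.

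The DNA replication genes comprise the helicase loader Cdc6, the MCM helicase, its activator Cdc45, the clamp Pcna and enzymes of nucleotide supply. None of the 10 tested passed in limma. Against 23.2% of all tested genes (12.2% higher and 11% lower), 2 of the 10 had an unadjusted p under 0.05, both higher with galectin-1. That count was 1 without vehicle replicate 1, 0 without vehicle replicate 2 or galectin-1 replicate 1, and 2 without galectin-1 replicate 2. Differences were positive for 7 of the 10 (50.7% of all tested genes were positive), with a median log2 fold change of 0.10 beside 0.00 over all tested genes, and they ranged from -0.09 to 0.19. The median was 0.06 without galectin-1 replicate 1.

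Pcna, the sliding clamp of DNA polymerases (chr2:132249286-132253180, GRCm38.p6), was the most abundant replication gene, above 98.7% of all symbols by mean level. It had 309.7 and 302.0 FPKM with vehicle and 335.0 and 323.6 FPKM with galectin-1. Both galectin-1 libraries lay above both vehicle libraries. The log2 fold change was 0.11 (standard error 0.03, n = 2 per group, limma adjusted p = 0.137), which did not pass.

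Mcm6, a helicase subunit (chr1:128331575-128359705, GRCm38.p6), had 30.6 and 30.9 FPKM with vehicle and 33.7 and 33.5 FPKM with galectin-1. The libraries of each group were close together and the groups did not overlap. The log2 fold change was 0.12 (standard error 0.04, limma adjusted p = 0.147). Its partners in the same ring had far lower levels: Mcm3, Mcm4 and Mcm5 had means of 3.55, 4.32 and 2.31 FPKM, Mcm7 of 2.71 and Mcm2 of 1.55 FPKM. The subunits of this hexamer therefore did not have similar transcript levels.

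Mcm4 had 3.85 and 4.23 FPKM with vehicle and 4.21 and 4.97 FPKM with galectin-1, so the groups overlapped (log2 fold change 0.15, limma adjusted p = 0.413). The difference was 0.05 without galectin-1 replicate 2, 0.25 without galectin-1 replicate 1 and 0.09 without vehicle replicate 1. Mcm3 had 3.19 and 3.30 FPKM with vehicle and 4.35 and 3.36 FPKM with galectin-1. Its difference of 0.19 (limma adjusted p = 0.387) came mainly from galectin-1 replicate 1 and was 0.04 without that library. Mcm5 had 2.12 FPKM in both vehicle libraries and 2.39 and 2.62 FPKM with galectin-1 (0.16, limma adjusted p = 0.336).

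The remaining tested replication members had differences from -0.09 to 0.09. Tyms, the thymidylate synthase, was the lowest of them, at 2.46 and 2.31 FPKM with vehicle and 2.17 and 2.205 FPKM with galectin-1. Rrm1, the large subunit of ribonucleotide reductase, had 2.997 and 3.64 FPKM with vehicle and 3.80 and 3.39 FPKM with galectin-1, with overlapping groups. Its small subunit Rrm2, which is made in S phase, was below the minimum at 0.510, 0.527, 0.920 and 0.543 FPKM (vehicle 1, vehicle 2, galectin-1 1 and galectin-1 2). The origin factors Cdc6 and Cdc45 were also below the minimum, with means of 0.131 and 0.411 FPKM. For Cdc45 the value of 0.762 FPKM in galectin-1 replicate 1 stood above the other libraries, which lay from 0.238 to 0.390 FPKM. Of the 13 members, 7 had their highest value in galectin-1 replicate 1, 4 in galectin-1 replicate 2 and 1 in each vehicle library. This count includes members below the minimum, and the same shares over all genes were not computed.

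The mitotic genes encode the cyclin B kinase and its cyclins, spindle motors and kinetochore proteins, the checkpoint, and the machinery that destroys cyclins. None of the 13 tested passed in limma. Against 23.2% of all tested genes, 1 was higher and 1 lower at an unadjusted p under 0.05. The 2 became 3 without vehicle replicate 1, 1 without vehicle replicate 2 or galectin-1 replicate 1, and 0 without galectin-1 replicate 2. Differences were positive for 6 and negative for 7, with a median of -0.02 and a range from -0.22 to 0.27. The median of the mitotic genes lay 0.12 below that of the replication genes on the log2 scale. That gap was 0.07 to 0.08 below without vehicle replicate 2 or either galectin-1 library, and 0.00 without vehicle replicate 1, where the mitotic median was 0.08. The difference between the classes thus shrank without any 1 library, and most without vehicle replicate 1. No test was run on that difference because genes are not replicates of a condition.

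Mki67 (chr7:135689784-135716450, GRCm38.p6) was the highest of the class, with 11.8 and 11.0 FPKM with vehicle and 13.1 and 13.3 FPKM with galectin-1. The galectin-1 libraries were both above the vehicle libraries. The log2 fold change was 0.19 (standard error 0.06, limma adjusted p = 0.139).

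Tpx2, the spindle assembly factor that activates Aurora A (chr2:152847964-152895321, GRCm38.p6), had 6.96 and 7.48 FPKM with vehicle and 6.40 and 5.77 FPKM with galectin-1. Here the galectin-1 libraries were both below the vehicle libraries. The log2 fold change was -0.22 (standard error 0.08, limma adjusted p = 0.180), the opposite sign to Mki67. The 2 most abundant mitotic genes therefore did not differ in 1 direction.

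Cdk1, the mitotic kinase, had 1.06 and 1.57 FPKM with vehicle and 1.53 and 1.90 FPKM with galectin-1 (0.24, limma adjusted p = 0.383). Leaving out 1 library moved it, to 0.40 (vehicle replicate 2), 0.14 (galectin-1 replicate 2) or 0.08 (vehicle replicate 1). Its partner Ccnb2 had 1.02 and 1.39 FPKM with vehicle and 0.838 and 1.18 FPKM with galectin-1, and the groups of both genes overlapped. Ccnb1, the other B-type cyclin, was below the minimum at 0.443 to 1.02 FPKM. Ccna2, the cyclin of S phase and G2, had 1.88 and 1.82 FPKM with vehicle and 1.61 and 1.74 FPKM with galectin-1.

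Among genes of the centromere and spindle, Cenpa, the centromeric histone, had 4.52 and 3.75 FPKM with vehicle and 4.14 and 3.94 FPKM with galectin-1 (-0.02, 95% interval -0.26 to 0.22, limma adjusted p = 0.921). Cdca8, a subunit of the chromosomal passenger complex, had 1.17 and 0.680 FPKM with vehicle and 1.33 and 1.28 FPKM with galectin-1 (0.27, limma adjusted p = 0.330). Its vehicle replicate 2 value stood below the other libraries, and the difference was 0.09 without that library and 0.46 without vehicle replicate 1. Birc5, another subunit of that complex, had 1.05 and 2.34 FPKM with vehicle and 1.29 and 1.53 FPKM with galectin-1, so the vehicle libraries were further apart than the groups. The catalytic subunit Aurkb was below the minimum at 0.740, 0.212, 0.599 and 0.519 FPKM in the order vehicle 1, vehicle 2, galectin-1 1 and galectin-1 2.

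Ube2c, the ubiquitin-conjugating enzyme of the anaphase-promoting complex, had 2.09 and 2.36 FPKM with vehicle and 2.70 and 1.82 FPKM with galectin-1. The galectin-1 libraries enclosed both vehicle values (0.01, 95% interval -0.36 to 0.37, limma adjusted p = 0.985). The activator of that complex, Cdc20, was below the minimum, with 0.593, 0.188, 0.709 and 0.628 FPKM in the same order, lowest in vehicle replicate 2. Plk1, the mitotic entry kinase, was likewise lowest in that library, with 0.186 FPKM in vehicle replicate 2 and 0.455 to 0.612 FPKM elsewhere. The other members below the minimum were Bub1, Bub1b and Ttk of the spindle checkpoint, the motors Kif11 and Kif20a, the spindle midzone protein Prc1 and the kinetochore protein Cenpf. Vehicle replicate 2 held the lowest value of 9 of the 24 mitotic members and the highest value of 7. For vehicle replicate 1 these counts were 7 and 7, for galectin-1 replicate 1 they were 3 and 6, and for galectin-1 replicate 2 they were 5 and 4. The same shares over all genes were not computed.

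Among the G1 regulators, 7 could be tested, of which 1 fell and the other 6 did not pass. Of all tested genes, 1.19% passed (0.608% higher and 0.586% lower). The 1 call did not hold under every alternative, as given below for Ccnd2. At an unadjusted p under 0.05 in limma there were 1 higher and 3 lower, against 12.2% higher and 11% lower of all tested genes. These were the 4 cyclins among the tested G1 members, Ccnd1, Ccnd2, Ccnd3 and Ccne1.

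Ccnd2, which encodes the D-type cyclin that was most abundant here (chr6:127125162-127152188, GRCm38.p6), had 106.2 and 112.9 FPKM with vehicle and 90.4 and 89.0 FPKM with galectin-1. Both galectin-1 libraries lay below both vehicle libraries. The mean fell from 109.6 ± 4.70 FPKM to 89.7 ± 1.03 FPKM (SD with n = 2 in each group). This is a log2 fold change of -0.28 (standard error 0.04, limma adjusted p = 0.0453). The call was lost without any 1 library (adjusted p 0.130 to 0.227), with no expression filter (0.137) and in limma without the trend (0.139). Under every alternative the log2 fold change lay from -0.33 to -0.24. The antisense transcripts 9330179D12Rik and Gm43126 overlap exons of Ccnd2, and the labels do not say whether reads were assigned by strand. The first was listed at 0.196, 0.475, 0.511 and 0.364 FPKM in the order vehicle 1, vehicle 2, galectin-1 1 and galectin-1 2, and the second was not analysed here.

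Ccnd3 lay on the same side as Ccnd2, and Ccnd1 on the other. Ccnd3 had 9.67 and 9.30 FPKM with vehicle and 8.02 and 7.96 FPKM with galectin-1 (-0.22, standard error 0.06, limma adjusted p = 0.115). Ccnd1, the D-type cyclin best known as a target of growth factor signals, had 9.215 and 10.4 FPKM with vehicle and 11.6 and 11.5 FPKM with galectin-1 (0.22, standard error 0.07, limma adjusted p = 0.153). The groups of both genes did not overlap, and neither difference passed.

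Summed over the D-type cyclins, the level was 125.1 and 132.6 FPKM with vehicle and 110.0 and 108.4 FPKM with galectin-1. Ccnd2 made up 84.9% and 85.2% of that sum with vehicle and 82.2% and 82.1% with galectin-1. The share of Ccnd1 was 7.37% and 7.83% with vehicle and 10.5% and 10.6% with galectin-1, while that of Ccnd3 was 7.02% to 7.73% in all libraries. Exons of Ccnd1 and Ccnd3 overlap protein-coding genes on the opposite strand. Oraov1 (also LTO1), beside Ccnd1, had a log2 fold change of -0.12 (limma adjusted p = 0.509), and Bysl, beside Ccnd3, one of -0.11 (limma adjusted p = 0.558).

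Ccne1, encoding cyclin E1, the cyclin that drives entry into S phase, had 4.81 and 5.18 FPKM with vehicle and 3.83 and 4.29 FPKM with galectin-1. Both galectin-1 values were below both vehicle values (-0.24, standard error 0.08, limma adjusted p = 0.168). Ccne2, its relative, was below the minimum at 0.282 to 0.398 FPKM. E2f1, the transcription factor released by these kinases, had 3.29 and 2.73 FPKM with vehicle and 3.04 and 3.37 FPKM with galectin-1, with overlapping groups (0.07, limma adjusted p = 0.728).

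Cdkn1a, the inhibitor induced by p53 and by LPS (chr17:29090979-29100722, GRCm38.p6), was the most abundant of all 45 members, above 99.6% of all symbols. It had 943.0 and 989.2 FPKM with vehicle and 924.6 and 957.3 FPKM with galectin-1. The groups overlapped, with a log2 fold change of -0.04 (95% interval -0.12 to 0.05, limma adjusted p = 0.555). Cdkn1b, the inhibitor linked to quiescence, had 6.18 and 5.94 FPKM with vehicle and 6.23 and 4.32 FPKM with galectin-1. Its difference of -0.19 (limma adjusted p = 0.480) came from galectin-1 replicate 2 and was 0.03 without it.

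**Figure D3:**
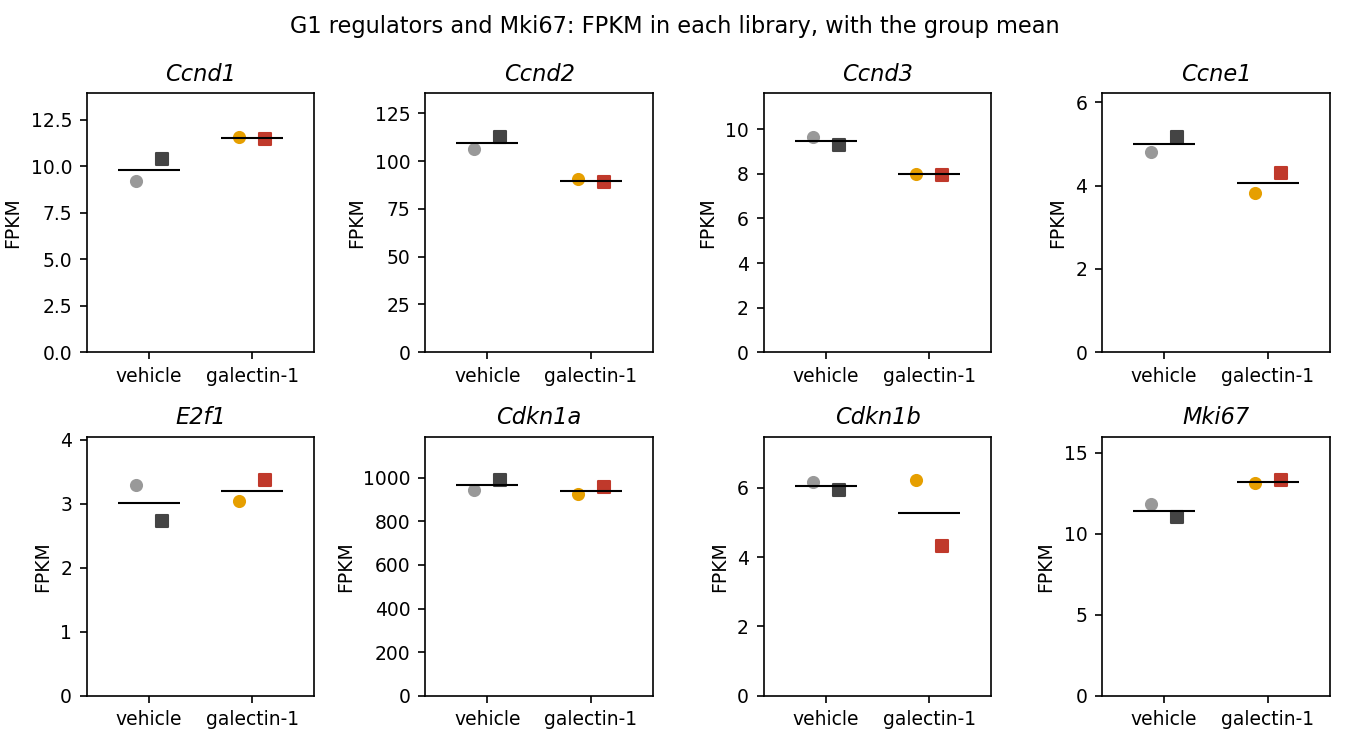
FPKM of the 7 tested G1 regulators and of Mki67 in each library (axes start at 0), 1 point per library and a line at each group mean. Ccnd2, Ccnd3 and Ccne1 are lower in both galectin-1 libraries, Ccnd1 and Mki67 are higher in both, and Cdkn1a lies between 924.6 and 989.2 FPKM throughout.

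Other genes of the pathway were measured beside the members. Of 48 other replication genes 32 were tested, and none passed in limma. At an unadjusted p under 0.05, 3 were higher and 4 lower, against 12.2% higher and 11% lower of all tested genes. The median log2 fold change was -0.04. Of the 32, 13 were positive and 19 negative. Tipin, a protein of the replication fork, had 3.08 and 3.03 FPKM with vehicle and 2.02 and 1.40 FPKM with galectin-1 (-0.59, limma adjusted p = 0.0859). Orc5, a subunit of the origin recognition complex, had 2.91 and 2.52 FPKM with vehicle and 1.77 and 1.43 FPKM with galectin-1 (-0.52, limma adjusted p = 0.0859). Exons of Orc5 overlap a pseudogene on the same strand.

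Of 66 other mitotic genes 15 were tested, and none passed in limma. The median log2 fold change was 0.04. Against 12.2% higher and 11% lower of all tested genes, 1 was higher and none lower at an unadjusted p under 0.05. That gene was Tacc3, a spindle protein, at 2.23 and 2.24 FPKM with vehicle and 3.09 and 2.73 FPKM with galectin-1 (0.27, limma adjusted p = 0.162). Cks1b, a subunit of cyclin-dependent kinases, had 2.62 and 2.43 FPKM with vehicle and 3.18 and 2.85 FPKM with galectin-1 (0.19, limma adjusted p = 0.286).

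Of 39 other G1 and checkpoint genes 30 were tested. Of the 30, 1 rose, none fell and 29 did not pass, against 0.608% higher and 0.586% lower of all tested genes. Counting an unadjusted p under 0.05 in limma, 6 were higher and 3 lower, against 12.2% higher and 11% lower of all tested genes. The gene that rose was Mxd1, which encodes a partner of MAX that opposes MYC. It had 66.97 and 71.999 FPKM with vehicle and 88.7 and 89.5 FPKM with galectin-1 (0.36, standard error 0.04, limma adjusted p = 0.0411). Without any 1 library the adjusted p ran from 0.103 to 0.222, so the call needed all 4. Max itself had 114.7 and 114.3 FPKM with vehicle and 126.3 and 125.4 FPKM with galectin-1 (0.13, limma adjusted p = 0.0899). Tested p53 target genes numbered 18 of 23. Of the 18, 1 rose, none fell and 17 did not pass, beside the same shares of all tested genes. Counting an unadjusted p under 0.05 in limma, 4 were higher and 1 lower, against 12.2% higher and 11% lower of all tested genes. Gdf15, a stress-induced cytokine, rose from 55.8 and 47.6 FPKM with vehicle to 82.7 and 79.4 FPKM with galectin-1 (0.64, standard error 0.08, limma adjusted p = 0.0371). Gdf15 no longer passed with no expression filter (limma adjusted p = 0.137) or in limma without the trend (adjusted p = 0.138). The call was also lost without vehicle replicate 2, galectin-1 replicate 1 or galectin-1 replicate 2. Without 1 library its log2 fold change ran from 0.53 to 0.75. Plk2, another p53 target, had a log2 fold change of 0.15 (limma adjusted p = 0.114).

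The summed markers of macrophages, myeloid progenitors, fibroblasts and dendritic cells each differed without overlap, though single markers did not all follow. Among all tested genes, 55.4% did not overlap. Macrophage markers summed to 9342 to 9346 FPKM with vehicle and 10120 to 10140 FPKM with galectin-1. Of the 8, 7 were higher and 1 lower without overlap, and none passed in limma. Progenitor markers summed to 6.11 to 6.49 FPKM with vehicle and 4.61 to 6.04 FPKM with galectin-1. The 8 fibroblast markers summed to 16.4 to 16.6 FPKM with vehicle and 20.4 to 20.6 FPKM with galectin-1. All 5 tested were positive, against 50.7% of all tested genes. None passed the threshold in limma. Against 23.2% of all tested genes, 1 had an unadjusted p under 0.05. That one was Bgn, at 5.80 and 5.34 FPKM with vehicle and 6.69 and 7.67 FPKM with galectin-1 (0.31, limma adjusted p = 0.120). The other 4 tested were Col1a1, Col1a2, Dcn and Sparc, while Lum and Pdgfra were at most 0.0442 and 0.221 FPKM. Col3a1, also below the minimum, had 0.966 and 1.05 FPKM with vehicle and 1.03 and 0.924 FPKM with galectin-1, with overlapping groups. The 7 dendritic cell markers summed to 22.6 to 22.7 FPKM with vehicle and 17.2 to 17.8 FPKM with galectin-1, mostly from Fscn1 and Ccl22. Of the 3 tested, 1 passed and was lower, against 0.586% of all tested genes. That gene was Fscn1 (-0.47, limma adjusted p = 0.0425). Counting an unadjusted p under 0.05 in limma, 2 of the 3 were lower, against 11% of all tested genes. Ccr7 had overlapping groups (-0.12, limma adjusted p = 0.590). Below the minimum, Zbtb46 was higher without overlap, at 0.249 and 0.0822 FPKM with vehicle and 0.296 and 0.320 FPKM with galectin-1. Xcr1 had means of 0.472 FPKM with vehicle and 0.504 FPKM with galectin-1, with overlap. Ccl22 had 8.97 and 9.12 FPKM with vehicle and 7.23 and 7.46 FPKM with galectin-1, without overlap (-0.27, limma adjusted p = 0.0911), while Flt3 was at most 0.0478 FPKM and Siglech at most 0.0638 FPKM. Whether fibroblasts or dendritic cells were present in the cultures was not tested. Nor was any part of them in the differences of Ccnd2, Mki67 and the replication genes.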

How the data were processed

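The 4 libraries came from total RNA of LPS-treated macrophages, prepared with a stranded mRNA kit, per the labels' protocols. The authors deposited FPKM values by gene symbol, with 1 file for each library. Cufflinks 2.2.1, SAMtools 0.1.19, Bowtie2 2.2.3, TopHat2 2.0.13 and mm10 are listed in the submitters' processing notes, without roles. The annotation, filters, use of strand and any further scaling were not stated in the labels. No read counts were used, so precision from depth could not be computed.

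Groups and replicate numbers came from the titles. Values were used as log2(FPKM + 1), and 9380 genes averaging 1 FPKM or more were tested with limma 3.58.1 in R 4.3.3 (empirical Bayes with a trend, 2 residual and 3.89 prior degrees of freedom, 2-sided, Benjamini-Hochberg adjusted p under 0.05). With 2 libraries in each group the smallest exact permutation p is 0.333, so that test was not used. The script was tested on simulated data.

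The members and lists were chosen with earlier results of these data known. All members are accounted for. Named with values are the members past the threshold, the 4 highest and the 4 of smallest p of each role and all tested G1 regulators, and from other lists the genes past the threshold and the 2 of smallest p. Rrm1, Rrm2, Tyms, Cdc45, Aurkb, Birc5, Ccna2, Ccnb2, Cdc20, Plk1, the genes overlapping the cyclins and the marker genes were singled out after their values were seen. Of 274 list entries 272 were found, 3 under another symbol. Locations and promoters are from RefSeq (GRCm38.p6, the assembly of mm10), and exon overlaps, found for 16 of the 45 members and with a protein-coding gene for 12, are from GENCODE M21. The replicates were compared before averaging, and no 2 libraries were identical. The alternatives were other pseudocounts, filters and scalings, limma without the trend, a replicate block and leaving out each library.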

Additional observations from a re-analysis of the deposited data

How the results depend on the processing

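No replication or mitotic member had a call under any alternative run, although the count over all tested genes moved from 112 to 3 with no filter, 226 at a mean of at least 5 FPKM, 71 after quantile normalization, 2 in limma without the trend, 240 with the replicate block and 12 to 16 without 1 library. The single G1 call, Ccnd2, became 0 with no filter, in limma without the trend and without each library (0 to 0). The replication median (0.10) was 0.061 at a pseudocount of 5, 0.124 with no filter and 0.059 to 0.116 without 1 library. The mitotic median (-0.02) was 0.0099 with no filter, 0.053 after quantile normalization and -0.0165 to 0.076 without 1 library. The mitotic minus replication difference (-0.12) was -0.14 at a pseudocount of 0.1, -0.074 at 5, -0.062 after quantile normalization and -0.077 to -0.0048 without 1 library. The cause of these shifts was not tested; the fits without 1 library have fewer samples and assume that a lone sample varies like the other group. Cenpa changed sign after quantile normalization (0.013), and without 1 library it ran from -0.13 to 0.088, Ube2c from -0.19 to 0.20, E2f1 from -0.030 to 0.17 and Cdkn1b from -0.41 to 0.034. Whether libraries of the same replicate number belong together is unknown. Replicate differences in the 2 groups correlated at 0.0114 across genes. The replicate block, with 1 residual degree of freedom, kept the member calls at 0, 0 and 1. Of the 299 gene values under alternatives, 275 kept direction and side of the threshold, 17 lost a call and 7 changed sign. Genes below 1 FPKM are limited by depth, which is unknown.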
